A study of Homo sapiens with 8 samples.

Results

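Complement factor I (CFI) and 8 further complement genes (CFB, CFD, C3, C1R, C1S, CD46, CD55 and CD59) were described over the 4 groups of arrays. These 9 genes were taken by their symbols from the 20219 gene symbols on the array, and 11 of the 29141 tested features carried them, because CFB had 3 features and every other member had 1. CFI itself was chosen by its measured values. The study selected it on these same arrays from the genes that differed between the combined condition and the control, for being higher in each single condition and higher still in the combination. The order of its 4 group means was thus part of the selection, and its values are given as a description, with standard errors and with no p-value. Where CFI enters a count of called genes below, its call is no separate finding. The other 8 members are further genes of the complement system, picked with earlier results of these data known.

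The cells were MIV-Luc, that is MCF10CA1a breast cancer cells carrying a luciferase gene. MCF10CA1a is an established metastatic line derived from MCF10A mammary epithelial cells. All groups carried a lentiviral pLKO vector, either with a scrambled hairpin (MIV-Luc-shSCR) or with a single hairpin against the IL-13 decoy receptor IL13Rα2 (MIV-Luc-shIL13Rα2#2), and each line was a puromycin-selected pool of transduced cells. Cells of each line were mock-treated (- IL-13) or received 20 ng/ml of the cytokine IL-13 for 16 h (+ IL-13), and each of the 4 groups had 2 arrays, which the study describes as biological replicates. No second hairpin was profiled, so the knockdown comparisons are comparisons of 1 hairpin pool with 1 control pool.

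Complement is a cascade of plasma and cell-surface proteins in which proteases cleave the central component C3, so that C3b is deposited on surfaces and a membrane-attack complex can be assembled. Host cells limit the cascade with membrane regulators (CD46, CD55 and CD59) and with soluble inhibitors, among them CFI, a serine protease that inactivates C3b and C4b with the help of cofactors such as CD46. Most soluble components come from the liver, and epithelial and tumor cells can also make several of them. IL-13 signals through IL13Rα1 and IL-4Rα to the transcription factor STAT6, whereas IL13Rα2 binds the cytokine and limits that signal.

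The windows just upstream of the transcription starts are shown for CFI, whose group means spanned the widest range among the members, and for CD55, CD59 and CFB as comparison. RefSeq windows on GRCh38.p14 were found for 7 of the 9 members (12 windows, since some genes have several starts), and no window was at hand for C3 and C1S. Each is the 250 bases before the start, written 5′ to 3′ on the gene's strand. They lie at chr4:109802000-109802249 (minus strand) for CFI, chr1:207321428-207321677 (plus strand) for CD55, chr11:33736480-33736729 (minus strand, the first of 4 starts) for CD59 and chr6:31945845-31946094 (plus strand) for CFB. Capitals mark matches to the searched motifs.
CFI: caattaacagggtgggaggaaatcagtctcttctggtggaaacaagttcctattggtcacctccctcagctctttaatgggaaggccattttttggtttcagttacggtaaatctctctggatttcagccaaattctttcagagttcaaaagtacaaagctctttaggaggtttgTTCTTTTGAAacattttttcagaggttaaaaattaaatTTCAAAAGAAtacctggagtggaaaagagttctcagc
CD55: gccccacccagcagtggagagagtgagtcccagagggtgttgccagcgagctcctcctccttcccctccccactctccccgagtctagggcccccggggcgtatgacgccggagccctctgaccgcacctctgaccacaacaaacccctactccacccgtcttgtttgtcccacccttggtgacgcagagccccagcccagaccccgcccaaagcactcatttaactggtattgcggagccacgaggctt
CD59: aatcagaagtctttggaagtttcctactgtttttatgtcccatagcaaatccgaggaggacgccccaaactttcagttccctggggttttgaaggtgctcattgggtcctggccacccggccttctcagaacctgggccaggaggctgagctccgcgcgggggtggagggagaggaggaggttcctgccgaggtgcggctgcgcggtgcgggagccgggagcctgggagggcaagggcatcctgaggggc
CFB: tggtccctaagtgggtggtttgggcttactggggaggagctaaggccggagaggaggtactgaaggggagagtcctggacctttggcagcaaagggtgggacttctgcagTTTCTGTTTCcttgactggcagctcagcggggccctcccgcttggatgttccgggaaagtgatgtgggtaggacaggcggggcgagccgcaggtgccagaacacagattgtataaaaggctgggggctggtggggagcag

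Both strands were searched for TTCNNNNGAA (the spacing that STAT6 is known to bind), GAAANNGAAA (an interferon-response element) and GGGNNTTTCC (an NF-kB site). The CFI window held 2 matches to TTCNNNNGAA, TTCTTTTGAA at bases 75 to 66 and TTCAAAAGAA at bases 37 to 28 before the start, and no match to the other motifs. None of the other 11 member windows held TTCNNNNGAA. Of all 35116 windows of this length, 5.38% held at least 1 such match and 0.202% held 2 or more. The CFI window was also rich in A and T (62.0%, against a median of 42.0% over all windows). The CD55 window held no match to any of these motifs. The CD59 window likewise held none, and the CFB window held TTTCTGTTTC, a reverse-strand match to GAAANNGAAA (3.02% of all windows). No member window held GGGNNTTTCC (1.73% of all windows). A match describes the letters of the window, not binding.

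The hairpin's target was checked first. The log2 level of IL13RA2 was 8.07 and 8.09 in MIV-Luc-shSCR (- IL-13), 9.36 and 9.33 in MIV-Luc-shSCR (+ IL-13), 6.52 and 6.34 in mock-treated MIV-Luc-shIL13Rα2#2, and 8.23 and 8.15 in MIV-Luc-shIL13Rα2#2 (+ IL-13). The knockdown lowered it by a log2 difference of -1.65 without IL-13 (SE 0.11, limma adjusted p = 0.0105) and -1.16 with IL-13 (adjusted p = 0.0241), and IL-13 raised it by 1.27 in the control line (adjusted p = 0.0135) and by 1.76 in the knockdown line (adjusted p = 0.00264). Between the IL-13-treated knockdown cells and the mock-treated control cells, the IL13RA2 transcript differed by little (log2 difference 0.11, 95% interval -0.14 to 0.36, adjusted p = 0.815).

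As for the cell type, array values of different genes cannot be ranked, so the marker lists are given by how they varied over the groups. Per array, the 8 basal epithelial markers averaged a log2 level of 8.41 to 8.72 (KRT5 9.46 to 9.98) and the 6 luminal markers 6.84 to 7.13 (KRT8 9.81 to 10.41, ESR1 3.97 to 4.40). Among the luminal markers, KRT18 read 9.32 to 9.60 in the control line and 8.75 to 8.90 in the knockdown line. The mean of the 5 leukocyte markers was 4.87 to 5.07 in MIV-Luc-shSCR (- IL-13), 4.77 to 4.94 with IL-13, 4.77 to 4.79 in mock-treated MIV-Luc-shIL13Rα2#2 and 4.69 to 4.84 with IL-13. Within that list PTPRC read 2.27 to 2.71 and CD14 5.10 to 5.71, while CD68 read 6.99 to 7.39 in the control line and 6.52 to 6.91 in the knockdown line. The mean of the 4 fibroblast markers lay between 4.55 and 4.74 on all arrays, with DCN at 2.41 to 3.13 and COL1A1 at up to 6.29. The mean of the 4 hepatocyte markers (ALB at 2.76 to 3.08) was 4.89 to 4.99 in MIV-Luc-shSCR (- IL-13), 4.81 to 4.86 with IL-13, 4.68 to 4.72 in mock-treated MIV-Luc-shIL13Rα2#2 and 4.62 to 4.71 with IL-13, which followed SERPINA1 (6.24 to 6.86 in the control line and 5.33 to 5.51 in the knockdown line). The mean of the 3 endothelial markers was 5.43 to 5.63, 5.33 to 5.37, 5.77 to 5.83 and 5.50 to 5.53 in the same order, following PECAM1 (7.71 to 8.82). The part of these markers in the results below was not tested. A log2 array value has no true 0. The arrays are of bulk RNA, so fewer cells with a transcript and less transcript per cell cannot be told apart. Array medians lay between 5.02 and 5.06, and the typical spread between arrays of a group was 0.143 log2 units (median residual SD).

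CFI, the C3b- and C4b-inactivating protease, was lowest without IL-13 or knockdown, higher with either of them and highest with both. Its log2 levels were 4.47 and 4.81 in MIV-Luc-shSCR (- IL-13), 5.65 and 5.41 in MIV-Luc-shSCR (+ IL-13), 5.56 and 5.68 in mock-treated MIV-Luc-shIL13Rα2#2, and 6.56 and 6.18 in MIV-Luc-shIL13Rα2#2 (+ IL-13). The corresponding means were 4.64 ± 0.24, 5.53 ± 0.17, 5.62 ± 0.083 and 6.37 ± 0.27 (SD, n = 2). Both control arrays lay below all others, and both arrays with knockdown and IL-13 lay above all others. The 2 intermediate groups overlapped, with means 0.091 log2 units apart. The order of the levels is therefore control, then either single condition without a clear order between them, then the combination.

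Against the shared control arrays, the log2 difference of CFI was 0.89 for IL-13 alone (SE 0.17, a 1.86-fold higher level), 0.98 for the knockdown alone (SE 0.17, 1.98-fold) and 1.73 for the combination (SE 0.17, 3.33-fold). The sum of the single differences was 1.88, and the interaction term was -0.14 (SE 0.25). Leaving out any single array moved the combined difference between 1.54 and 1.92. The difference for IL-13 in the knockdown line was 0.75 and that for the knockdown among IL-13-treated cells was 0.84 (SE 0.17 each). The gene was chosen by this pattern, so nothing is drawn from how these differences add up.

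**Figure D1:**
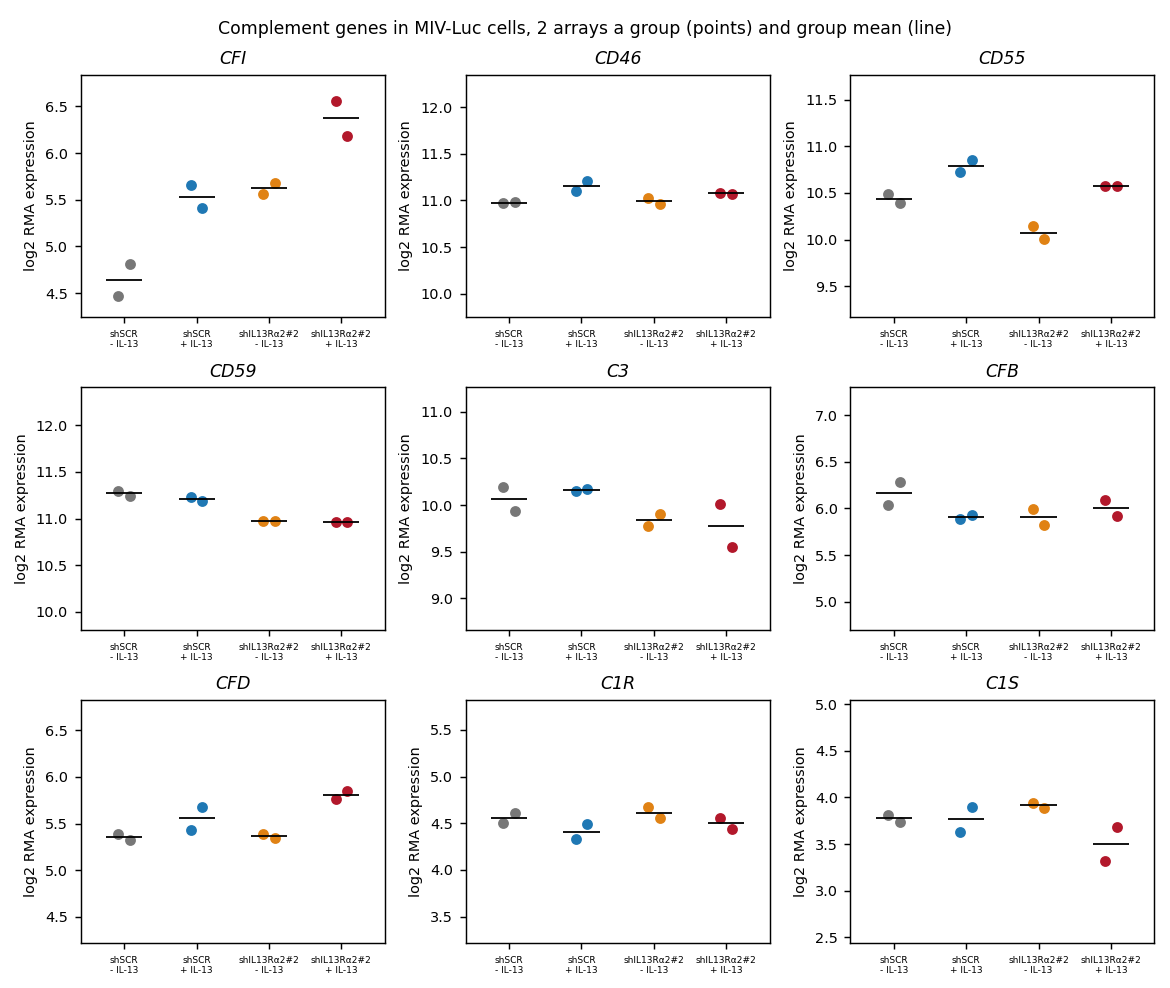
Deposited log2 expression value (y axis) of each member on each of the 8 arrays, by group (x axis), with a point per array and a line at the group mean (for CFB, the feature with the highest mean). CFI is lowest at 4.47 and 4.81 in the control group and highest at 6.56 and 6.18 with knockdown and IL-13, whereas the arrays of CD55 go up with IL-13 in each line and sit lower in the knockdown line, and those of CD59 sit lower in the knockdown line with or without IL-13.

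The membrane regulators are the proteins that protect a cell's own surface. CD55 (decay-accelerating factor) takes apart the enzymes that cleave C3. Its log2 levels were 10.49 and 10.39 in MIV-Luc-shSCR (- IL-13), 10.72 and 10.86 in MIV-Luc-shSCR (+ IL-13), 10.14 and 10.01 in mock-treated MIV-Luc-shIL13Rα2#2, and 10.57 and 10.58 in MIV-Luc-shIL13Rα2#2 (+ IL-13). All arrays with IL-13 lay above all arrays without it, and within each treatment the knockdown arrays lay below the control arrays. The share of all features whose arrays separate in these ways was not counted, here or for the members below. Over both lines, the log2 difference with IL-13 was 0.43 (SE 0.08, 1.34-fold, 95% interval 0.24 to 0.61), and over both treatments the knockdown difference was -0.29 (SE 0.08, 1.22-fold lower, 95% interval -0.47 to -0.11). Neither passed the adjustment over all 29141 features (limma adjusted p = 0.134 and 0.240). Nor could either be called at the 2-fold threshold given below. The adjusted p moved with the way the spread was estimated. With a prior that follows signal intensity and is robust to outlying features, the adjusted p of the same differences was 0.0013 for IL-13 and 0.0125 for the knockdown. Under the other alternatives it reached 0.151 and 0.258, and without any single array it was 0.232 to 0.382 and 0.313 to 0.495.

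The conditions that each went with higher CFI thus had differences of opposite sign in CD55. In the combined condition CD55 differed from the control by 0.14 (adjusted p = 0.760), with single differences of 0.35 for IL-13 (SE 0.11, adjusted p = 0.620) and -0.36 for the knockdown (SE 0.11, adjusted p = 0.401), all in limma. The lowest group mean was that of MIV-Luc-shIL13Rα2#2 (- IL-13) at 10.08 and the highest that of MIV-Luc-shSCR (+ IL-13) at 10.79. In between, MIV-Luc-shSCR (- IL-13) at 10.44 and MIV-Luc-shIL13Rα2#2 (+ IL-13) at 10.58 were 0.14 apart, a difference that did not pass the test.

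CD59, which blocks assembly of the membrane-attack complex, had log2 levels of 11.30 and 11.25 in MIV-Luc-shSCR (- IL-13), 11.24 and 11.19 in MIV-Luc-shSCR (+ IL-13), 10.97 and 10.98 in mock-treated MIV-Luc-shIL13Rα2#2, and 10.97 and 10.96 in MIV-Luc-shIL13Rα2#2 (+ IL-13). All 4 knockdown arrays lay below all 4 control-line arrays. How many of all features separate the lines in this way was not counted. The knockdown difference over both treatments was -0.27 (SE 0.07, 1.21-fold lower, 95% interval -0.43 to -0.11). It did not pass the adjustment (limma adjusted p = 0.208), and, as for CD55, the intensity-dependent robust prior gave another answer (adjusted p = 0.00286, up to 0.241 under the other alternatives and 0.268 to 0.451 without any single array). For IL-13 the CD59 difference was -0.035 (95% interval -0.20 to 0.13, adjusted p = 0.928).

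CD46 (membrane cofactor protein), a cofactor that CFI needs to cut C3b on the cell surface, differed little. Its arrays read 10.97 and 10.98, 11.10 and 11.21, 11.02 and 10.96, and 11.08 and 11.07 in the same order of groups. The arrays with IL-13 were all above those without it, but by a log2 difference of only 0.13 (SE 0.07, limma adjusted p = 0.662). What share of all features separates so was not counted. For the knockdown the difference was -0.028, with a 95% interval from -0.20 to 0.14.

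**Figure D2:**
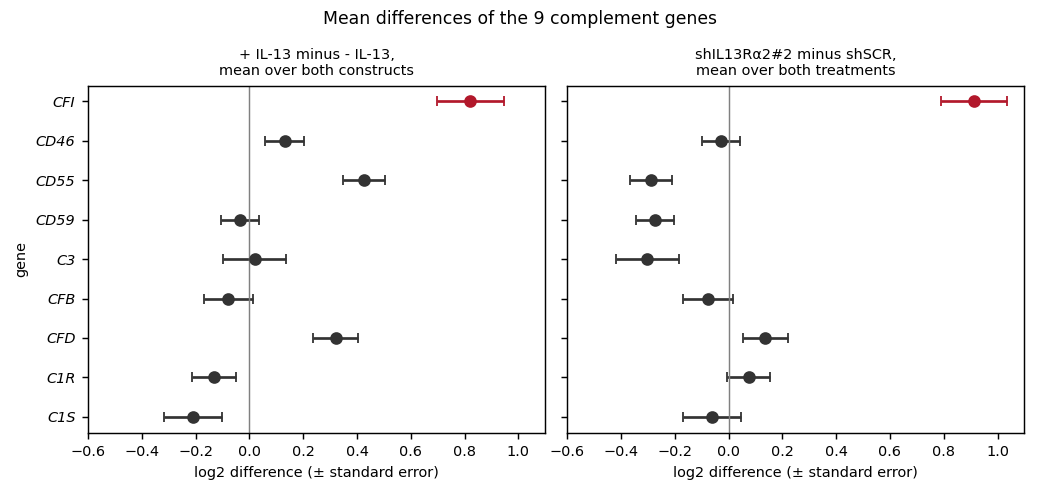
Log2 difference (x axis) of each member (y axis) with IL-13 over both lines and with the knockdown over both treatments, as points with bars of 1 standard error from the limma fit (CFI in red). CFI lies to the right in both comparisons (0.82 and 0.91), CD55 lies to the right for IL-13 (0.43) and to the left for the knockdown (-0.29), and CD59 lies to the left for the knockdown (-0.27) and near 0 for IL-13 (-0.035).

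Among the genes of the alternative pathway, C3 is the protein that all pathways cleave, CFB supplies the protease of the C3-cleaving enzyme and CFD activates CFB. C3 read 10.19 and 9.93 in MIV-Luc-shSCR (- IL-13), 10.15 and 10.18 in MIV-Luc-shSCR (+ IL-13), 9.78 and 9.91 in mock-treated MIV-Luc-shIL13Rα2#2, and 10.01 and 9.55 in MIV-Luc-shIL13Rα2#2 (+ IL-13). The knockdown groups had the lower means, but the lines overlapped and the last group alone spread over 0.32 log2 units (SD). The knockdown difference was -0.30 (SE 0.12, limma adjusted p = 0.399), and that for IL-13 was 0.019 (95% interval -0.25 to 0.29).

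CFD read 5.38 and 5.32, 5.43 and 5.68, 5.39 and 5.35, and 5.77 and 5.85 in the same order of groups. All arrays with IL-13 were above those without it, and the arrays with IL-13 and knockdown were the highest of all. What share of all features has such an order was not counted. The difference for IL-13 over both lines was 0.32 (SE 0.08, limma adjusted p = 0.316), and that of the combination was 0.46 (SE 0.12, adjusted p = 0.276). Without IL-13, the knockdown difference was 0.018 (adjusted p = 0.977). None of the differences of CFD passed the test.

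CFB was highest in the control group on all of its 3 features. The feature with the highest mean read 6.04 and 6.28 in MIV-Luc-shSCR (- IL-13) and between 5.82 and 6.09 on all other arrays. Its arrays with IL-13 alone and with the knockdown alone all lay below both control arrays. Those with knockdown and IL-13, at 6.09 and 5.92, overlapped the control arrays. On each of the other features, the arrays with IL-13 alone overlapped the control arrays. There, the arrays with the knockdown, with or without IL-13, all lay below the control arrays. The difference of the feature with the highest mean was -0.25 for IL-13 alone (adjusted p = 0.788) and -0.25 for the knockdown alone (adjusted p = 0.587) in limma. The 3 features carry the same symbol but gave different values, up to 0.32 log2 units apart on 1 array, and another of them had a knockdown difference of -0.36 (adjusted p = 0.494). No feature of CFB passed the test.

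C1R and C1S encode the proteases that start the classical pathway. C1R read between 4.33 and 4.67 on all arrays, with a difference of -0.13 for IL-13 (limma adjusted p = 0.700) and 0.075 for the knockdown (adjusted p = 0.782). C1S read between 3.32 and 3.94, among the dimmest 30% of the tested features (mean under 4.01). It read 3.32 and 3.69 with knockdown and IL-13, and 3.63 and 3.90 with IL-13 alone. The C1S difference for IL-13 was -0.011 in the control line (SE 0.15, limma adjusted p = 0.995). In the knockdown line it was -0.41 (SE 0.15, adjusted p = 0.664).

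A gene was called at an adjusted p under 0.05 in limma and a fold change above 2, the thresholds that the study states. None of the 9 members was called for IL-13 in MIV-Luc-shSCR cells, where 0.0583% of all features were called. None was called for the knockdown without IL-13 (0.0652% of all features), for IL-13 in the knockdown line (0.0618%) or for the knockdown among IL-13-treated cells (0.0515%). In the combined condition, 1 of 9 members was called, and it was CFI, the gene chosen on that contrast, where 0.154% of all features were called. That call was lost when any 1 of the 4 arrays compared was left out. For IL-13 over both lines (0.0927% of all features) and for the knockdown over both treatments (0.0755%) no member was called. For the interaction no member and no feature was called (0%), with 1304 features (4.47%) at an unadjusted p under 0.05. The comparisons share arrays, in particular the control arrays, and are not independent of each other.

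A wider list of 59 complement genes, of which 58 were on the array, held 49 genes beside the members. None of these 49 was called in any comparison, and none had an adjusted p under 0.05. For IL-13 over both lines, 22 were higher and 27 lower, with a median log2 difference of -0.0099, beside 0.0084 over all features. For the knockdown over both treatments, 25 were higher and 24 lower, with a median of 0.0019, beside -0.0060 over all features. The 8 members other than CFI split into 4 higher and 4 lower for IL-13 (median -0.0080) and into 2 higher and 6 lower for the knockdown (median -0.069).

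The soluble partners of the members that are named here did not pass the test either. C4BPA and C4BPB, the chains of the C4b-binding protein that serves CFI as cofactor in fluid, differed by -0.060 (adjusted p = 0.904) and 0.22 (adjusted p = 0.505) with IL-13. SERPING1, the inhibitor of C1R and C1S, read 4.64 to 5.07 and differed by -0.011 (adjusted p = 0.986) with IL-13 and by -0.14 (adjusted p = 0.697) with the knockdown. CLU, which binds the terminal complex, read 3.81 to 4.13 and differed by -0.13 (adjusted p = 0.717) with IL-13.

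**Figure D3:**
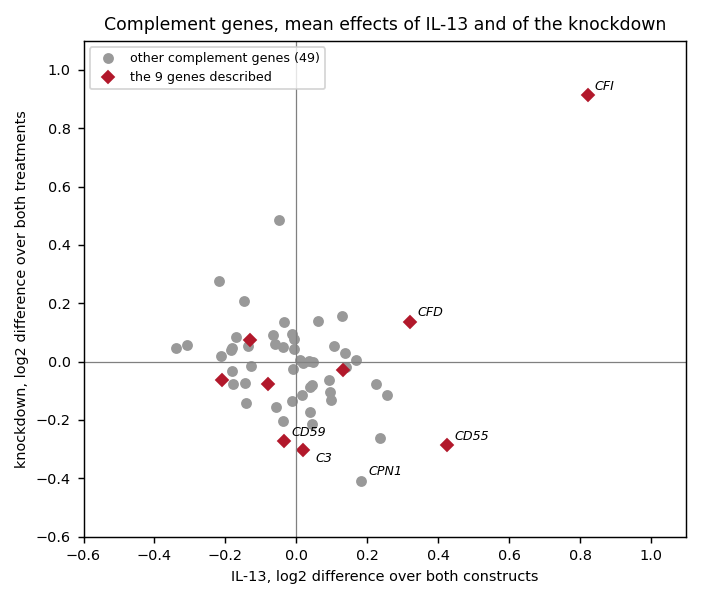
Log2 difference with IL-13 over both lines (x axis) against log2 difference with the knockdown over both treatments (y axis) for the 58 complement genes on the array, with the 9 members as red diamonds and the other 49 as grey points. CFI stands at 0.82 and 0.91, apart from the other genes, and CD55 at 0.43 and -0.29 is the only other member with an IL-13 difference above 0.4.

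The genes whose pattern was most like that of CFI were sought among 139 features whose group means spanned more than 1 log2 unit, by Pearson's r over the 8 arrays. They were CXCL1 (r = 0.97), TP63 (r = 0.97), THBS1 (r = 0.94), PALMD (r = 0.94) and SLC26A2 (r = 0.94). CXCL1, a neutrophil-attracting chemokine, had group means of 8.12, 8.61, 8.65 and 9.13 in the same order of groups, and TP63, a transcription factor of basal epithelium, had 4.96, 6.05, 6.15 and 6.74. The genes were picked for their likeness to CFI, so their order of groups is no separate finding, and the study selected TP63 for the same pattern.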

How the data were processed

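RNA of 8 cultures was hybridized to Affymetrix arrays, labelled as Human Exon 1.0 ST. The authors deposited log2 expression values, made with Expression Console and the RMA method (background correction, quantile normalization and probe summarization), as 33297 gene-level features. The construct and treatment named in each column heading gave its group. The 4156 control features were left out and 29141 were tested without a filter on signal (7064 of them without a symbol). No 2 arrays held identical values.

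Group means were fitted over all 8 arrays in R (version 4.3.3) with limma (version 3.58.1) (4 residual and 3.86 prior degrees of freedom). P-values were adjusted over all tested features by Benjamini-Hochberg, and a call needed an adjusted p under 0.05 and a fold change above 2. Intervals are 95% intervals of that fit. With arrays, their number limits the precision, and levels of different genes cannot be compared. The procedure was tested on simulated data.

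The members, the 59-gene complement list (written from general knowledge, C4B not on the array) and the markers were chosen with earlier results of these data known. Named genes were the members, IL13RA2, complement genes with an adjusted p under 0.05, partners and inhibitors of the members (SERPING1, CLU, C4BPA and C4BPB, with a further gene not reported here) and the 5 genes most like CFI. The feature with the highest mean stood for a gene with several. Alternatives were the methods' analysis of variance over the 4 arrays compared, limma on those arrays, limma without adjustment, other fold thresholds, 2 further normalizations, leaving out the dimmest 30% of features, an intensity-dependent robust prior and leaving out each array. Promoter windows and their coordinates are from RefSeq (GRCh38.p14).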

Additional observations from a re-analysis of the deposited data

How the results depend on the processing

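Of 901 recomputed log2 differences of members, 875 kept their direction and side of the threshold, 21 uncalled differences changed sign, 5 (all CFI in the combination) were no longer called, and 0 called differences reversed. In the combination, the members called and the complement genes called were 1 each and became 0 each under the methods' analysis of variance with adjustment and under limma on the 4 arrays compared. Leaving out each array gave 0 to 1 for both counts, with 0 without either array of MIV-Luc-shSCR (- IL-13) or of MIV-Luc-shIL13Rα2#2 (+ IL-13), while the CFI difference stayed between 1.54 and 1.92. For the knockdown over both treatments, the members called and the complement genes called were 0 and became 1 (CFI) with a fold change above 1.5 and with no fold change threshold. With no fold change threshold, 130 of all 29141 features were called, beside 22 at the 2-fold threshold. The number of all features at 1.5-fold was not counted. CFI was chosen by its pattern over these groups, so neither its call here nor that in the combination is a separate finding. For the interaction, the complement genes called were 0 and became 2 of 58 in limma without adjustment. At that setting 1304 of all 29141 features (4.47%) were called, so the 2 genes are no result about complement. Leaving out single arrays gave a CFI interaction between -0.33 and 0.05. C1S has no value where the dimmest 30% of features are left out. No paired analysis was possible because the column headings carry no replicate numbers, so no replicate block was fitted. With 2 arrays a group and a typical SD of 0.143, small differences such as those of CD46 cannot be resolved.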

Other observations

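CPN1, the catalytic chain of the carboxypeptidase that inactivates the C3a and C5a peptides, was picked once its values were known, by an unadjusted p under 0.05. It differed by -0.41 with the knockdown over both treatments (SE 0.14, limma adjusted p = 0.352).

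CR2 and CR1, complement receptors encoded beside CD55 and CD46 in a cluster of complement regulators, differed with IL-13 by 0.039 (SE 0.12, limma adjusted p = 0.958) and -0.14 (SE 0.10, adjusted p = 0.745). The receptors of the C3a and C5a peptides, C3AR1 and C5AR1, differed with IL-13 by -0.034 (adjusted p = 0.968) and -0.18 (adjusted p = 0.764). The 3 features of C4A held identical values, and C4A and C4B cannot be told apart on these arrays.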
